A study of Mus musculus with 10 samples.

Results

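The 9 genes described here are Mcoln2, Slc30a4, Pcbp4, Serpinh1, Ephx2, Calml4, Cgnl1, Smoc2 and Gm11942, out of 38086 genes counted in both of the study's count tables. They were chosen by their measured read counts, because their RNA was higher in mice lacking Dnmt3a, in granulocyte-macrophage progenitors (GMP), in LSK cells or in both; no numeric threshold was set. Their differences between knockout and control are therefore given as a description, with no test. The comparison they leave to be made is between the populations: which of these genes are already on in control LSK cells, and how far each goes in the knockout GMP.

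RNA was sequenced from C57BL/6 mice 12 months old. All mice carried floxed Dnmt3a alleles and received 5 injections of poly(I:C). Knockout (KO) mice were Dnmt3a f/f Mx1-Cre+, and control (CTRL) mice were Dnmt3a f/f Mx1-Cre-, so every KO mouse also has Cre and no CTRL mouse does. Mx1-Cre is switched on by the interferon response to poly(I:C), and is active in other organs as well as in blood-forming cells. LSK cells (Lin- Sca1+ cKit+) hold the stem cells and multipotent progenitors, and GMP (Lin- Sca1- cKit+ CD34+ FcgR+) are committed to granulocytes and monocytes. There were 2 CTRL and 3 KO libraries of each population, named below by genotype and title number. The labels do not state that libraries come from separate animals, so p-values measure the spread between libraries.

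Dnmt3a is a de novo DNA methyltransferase that places methyl groups on cytosines of CpG dinucleotides. Methylation of a CpG-rich promoter usually goes with a silent gene, and loss of the enzyme in blood-forming stem cells is known for favouring self-renewal over differentiation. During the step from stem and multipotent cells to GMP many genes of the earlier state are shut off. LSK cells are a mixture, so a gene that is on in LSK cells and low in GMP need not be such a gene.

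Dnmt3a itself gave 143 and 115 CPM (read counts scaled to library size) in GMP CTRL-346 and CTRL-350, and 51.7, 65.9 and 20.5 CPM in GMP KO-178, then KO-179, then KO-352, the order kept below. In LSK it gave 151 and 145 CPM in CTRL-1326 and CTRL-1330 and 55.5, 51.2 and 57.1 CPM in KO-1327, then KO-1333, then KO-1334. Every KO library lay below every CTRL library of its population; reads over the whole gene are counted, including exons outside a deleted part. GMP libraries held 93850256 to 122658636 reads on genes and LSK libraries 29533371 to 30437981. The populations also come from separate count tables made on different annotations, so cell type, table and depth cannot be told apart in any comparison of LSK with GMP. In bulk RNA, fewer cells of a type and less RNA per cell cannot be told apart either. By edgeR's quasi-likelihood test (adjusted p under 0.05), all 16 markers of LSK and stem cells were higher in LSK CTRL than in GMP CTRL. All 10 GMP markers were lower. Of all genes tested 28.2% were called higher and 27.3% lower. A label of KO-352 refers to LSK data against its title; all 3 KO GMP libraries, KO-352 among them, summed to 16782 to 22769 CPM of GMP markers, against 2022 to 2636 CPM in LSK. Reads of Y-linked genes and of Xist put LSK CTRL-1326 and KO-1327 with all GMP libraries (male pattern) and the other 3 LSK libraries apart (female pattern). Sex is thus not balanced between LSK and GMP, and its part in their differences was not tested.

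A gene was counted as on where it reached 1 CPM in every library of a group. By that measure 6 of the 9 genes were on in control LSK: Mcoln2, Slc30a4, Pcbp4, Serpinh1, Ephx2 and Calml4. The share among all genes tested in the fit of the 10 libraries was 68.2%, so 6 of 9 is near the background. In control GMP only Slc30a4 and Pcbp4 of the 9 were on, against 61.7% of all genes. In KO GMP 8 of 9 were on, all but Serpinh1, which missed the level in KO-179 alone (background 62.5%). In KO LSK 5 of 9 were on (background 67.1%): Calml4 was under the level in KO-1333 and KO-1334, and Cgnl1 passed it in KO-1333 and KO-1334 but not in KO-1327. The genes were chosen by KO and CTRL counts of these same groups, so nothing is read from these numbers against their backgrounds.

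**Figure D1:**
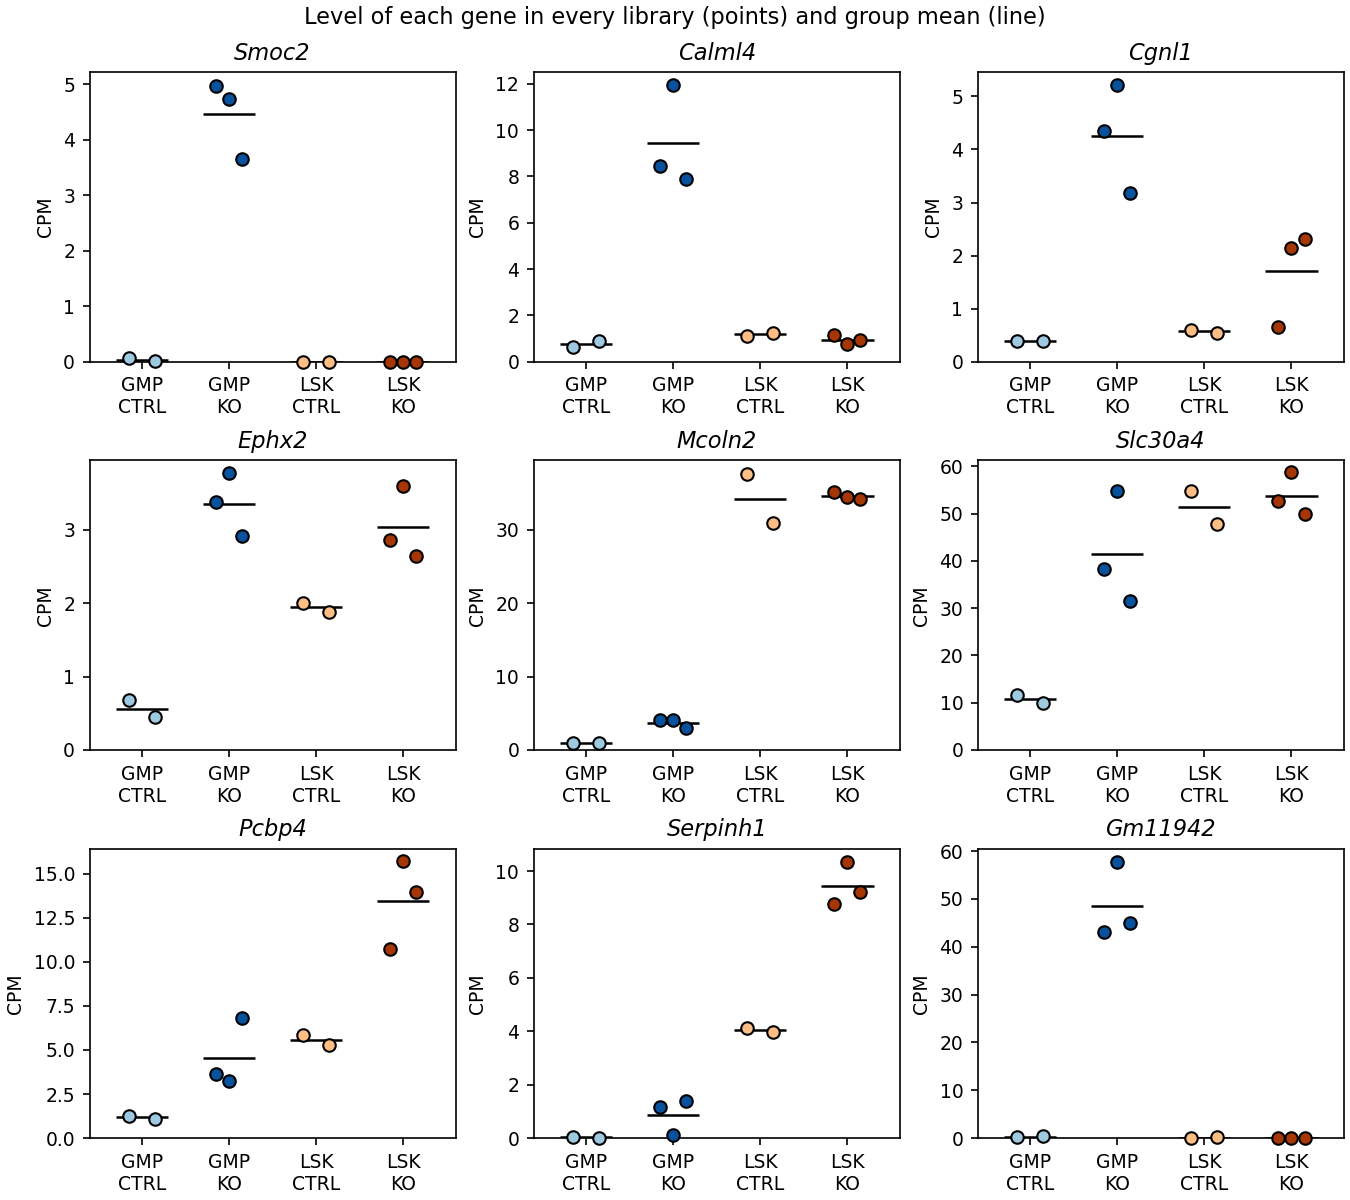
Level of each of the 9 genes in CPM (vertical axis, from 0, a separate scale per gene) in every library, with points for libraries and a line for the group mean of 2 CTRL or 3 KO libraries. Mcoln2, Slc30a4, Pcbp4 and Serpinh1 are high in LSK of both genotypes, whereas Smoc2 and Gm11942 stand above 3 CPM in the 3 KO GMP libraries and nowhere else.

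LSK and GMP were compared in CTRL mice with edgeR's quasi-likelihood test over 18836 genes. Over all genes 55.4% were called in either direction. Of the 9 genes 5 were called higher in LSK (background 28.2% of genes called higher) and 0 were called lower (background 27.3%): Mcoln2, Slc30a4, Pcbp4, Serpinh1 and Ephx2. The GMP CTRL libraries in this comparison are those against which the genes were chosen as higher in KO, so the choice of members is not independent of it. In 7 of 9 genes both LSK CTRL libraries lay above both GMP CTRL libraries, against 41.8% of all genes; the other two are Smoc2 and Gm11942.

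Mcoln2 encodes TRPML2, a cation channel of endosomes and lysosomes that is best known in immune cells. It gave 0.963 and 0.968 CPM in GMP CTRL, 4.08, 4.05 and 2.95 CPM in GMP KO, 37.6 and 30.9 CPM in LSK CTRL, and 35.1, 34.4 and 34.2 CPM in LSK KO. The 4 groups order as GMP CTRL, GMP KO and then both LSK groups, which overlap with each other and with no GMP library. In CTRL mice LSK exceeded GMP by 5.15 ± 0.20 on the log2 scale (SE; edgeR adjusted p = 7.28e-08). The KO GMP mean was 3.83 times the CTRL GMP mean but 10.8% of the LSK CTRL mean, and LSK CTRL exceeded GMP KO by 3.21 ± 0.16 on the log2 scale (edgeR adjusted p = 1.90e-07). In LSK the ratio of KO to CTRL means was 1.01.

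Slc30a4 encodes ZnT4, a transporter that moves zinc out of the cytosol into vesicles. It gave 11.7 and 10.04 CPM in GMP CTRL, 38.3, 54.8 and 31.5 CPM in GMP KO, 54.8 and 47.9 CPM in LSK CTRL, and 52.6, 58.8 and 49.95 CPM in LSK KO. Control GMP stood alone at the bottom, and KO-179 was the KO GMP library that fell within the LSK range. In CTRL mice LSK exceeded GMP by 2.24 ± 0.23 on the log2 scale (edgeR adjusted p = 2.26e-05). KO GMP reached 80.9% of the LSK CTRL mean. That remaining difference was 0.30 ± 0.20 on the log2 scale (95% interval -0.13 to 0.74; edgeR adjusted p = 0.21), which leaves room for no difference or for LSK CTRL being clearly higher. Without KO-179 it was 0.57 with an adjusted p of 0.0054.

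Pcbp4 encodes a KH-domain protein that binds poly(C) stretches of RNA and is a known target of p53. It gave 1.27 and 1.08 CPM in GMP CTRL, 3.64, 3.23 and 6.83 CPM in GMP KO, 5.85 and 5.29 CPM in LSK CTRL, and 10.7, 15.7 and 14.0 CPM in LSK KO. KO lay above CTRL in both populations with no overlap. KO-352 was the KO GMP library that lay above LSK CTRL. In CTRL mice LSK exceeded GMP by 2.25 ± 0.37 on the log2 scale (edgeR adjusted p = 4.96e-04). KO GMP stood at 82.0% of the LSK CTRL mean, a difference of 0.29 ± 0.31 (95% interval -0.41 to 0.98; edgeR adjusted p = 0.46). Without KO-352 LSK CTRL was higher by 0.71 with an adjusted p of 0.0188.

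Serpinh1 encodes HSP47, the chaperone of the endoplasmic reticulum that folds procollagen. It gave 0.0609 and 0.0121 CPM in GMP CTRL (6 reads in all), 1.15, 0.108 and 1.38 CPM in GMP KO, 4.14 and 3.99 CPM in LSK CTRL, and 8.77, 10.3 and 9.22 CPM in LSK KO. KO-179 held 12 reads and stood near control GMP, while KO-178 and KO-352 held 104 and 118. In CTRL mice LSK exceeded GMP by 6.72 ± 1.09 on the log2 scale (edgeR adjusted p = 4.90e-04). KO GMP reached 21.6% of the LSK CTRL mean; LSK CTRL exceeded it by 2.22 ± 0.70 (edgeR adjusted p = 0.0196), a call lost without CTRL-1326 (0.069) or without CTRL-1330 (0.066). In LSK the KO mean was 2.32 times the CTRL mean, with no overlap.

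Ephx2 encodes the soluble epoxide hydrolase, which converts fatty acid epoxides to diols. It gave 0.682 and 0.448 CPM in GMP CTRL, 3.38, 3.78 and 2.92 CPM in GMP KO, 2.01 and 1.88 CPM in LSK CTRL, and 2.86, 3.60 and 2.65 CPM in LSK KO. Both KO groups lay above both CTRL groups, and the KO groups overlapped each other. In CTRL mice LSK exceeded GMP by 1.78 ± 0.33 on the log2 scale (edgeR adjusted p = 0.00111). KO GMP was 173% of the LSK CTRL mean, a value that the choice bears on.

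Calml4 encodes a calmodulin-like light chain, known from the brush border of intestinal cells, where it belongs to the complex that links microvilli. It gave 0.646 and 0.919 CPM in GMP CTRL, 8.45, 11.9 and 7.91 CPM in GMP KO, 1.13 and 1.24 CPM in LSK CTRL, and 1.14, 0.787 and 0.930 CPM in LSK KO. The 3 KO GMP libraries stood alone, and the other 7 libraries lay together. Control LSK and control GMP differed by 0.60 ± 0.33 on the log2 scale (95% interval -0.12 to 1.32; edgeR adjusted p = 0.14). The KO GMP mean was 7.96 times the LSK CTRL mean, a value that the choice of Calml4 for its KO GMP counts bears on.

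Cgnl1 encodes paracingulin, a protein of the inner face of epithelial cell junctions. It gave 0.390 and 0.399 CPM in GMP CTRL, 4.35, 5.21 and 3.19 CPM in GMP KO, 0.609 and 0.549 CPM in LSK CTRL, and 0.657, 2.15 and 2.31 CPM in LSK KO. KO-1327 sat at the control level of LSK while KO-1333 and KO-1334 stood above it, and no LSK library reached the KO GMP range. KO-1327 is also the KO LSK library with Y-linked reads; of the CTRL pair, CTRL-1326 (Y-linked reads) gave 0.609 CPM and CTRL-1330 (Xist reads) 0.549 CPM. The part of this split in Cgnl1 was not tested. Control LSK and control GMP differed by 0.55 ± 0.55 on the log2 scale (95% interval -0.67 to 1.77; edgeR adjusted p = 0.42). The KO GMP mean was 7.34 times the LSK CTRL mean, again a value that the choice bears on.

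Smoc2 encodes a secreted calcium-binding protein of the SPARC family, found in extracellular matrix. It gave 0.0609 and 0.0121 CPM in GMP CTRL (6 reads in all) and 4.97, 4.74 and 3.66 CPM in GMP KO (1289 reads). All 5 LSK libraries held 0 reads. A count of 0 allows up to 0.0445 CPM in LSK CTRL and 0.0290 CPM in LSK KO, taking 3 reads over the group as the floor. KO GMP was thus at least 100-fold higher than LSK CTRL and at least 154-fold higher than LSK KO. No test is given for these, since Smoc2 was chosen for its high counts in KO GMP and passed the filter on low counts only through that group. Reads here carry no molecular identifiers and so do not count molecules, and these floors reflect counting error alone. Between the controls, with 6 reads against 0, edgeR gave an adjusted p of 0.081. Nothing is read from it, because the gene passed the filter only through KO GMP.

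Gm11942 is a processed pseudogene, a gene copy made by reverse transcription of the messenger RNA of Rplp1. Rplp1 encodes a protein of the stalk of the large ribosomal subunit. Gm11942 is 345 bases long and matches the Rplp1 transcript over that length at 97.4% identity, with 9 differing bases (GENCODE vM21). The longest stretch without a difference is 114 bases, and a shorter read lying within it fits both genes equally. Reads aligned to several places were left off the genes in the GMP table, where they have a line of their own.

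Gm11942 gave 0.171 and 0.387 CPM in GMP CTRL and 43.1, 57.6 and 45.0 CPM in GMP KO. In LSK it gave 0.122 and 0.144 CPM in CTRL and 0.114, 0 and 0.113 CPM in KO, from 17 reads over the 5 libraries. The KO GMP libraries stood alone, and the other 7 libraries stayed under 0.4 CPM. The KO GMP mean was 365 times the LSK CTRL mean, given with no test because the gene was chosen for its KO GMP counts. The controls differed by -1.05 ± 0.63 on the log2 scale (95% interval -2.45 to 0.34; edgeR adjusted p = 0.18). Rplp1 itself had the opposite order in GMP: it gave 759 and 516 CPM in GMP CTRL, 278, 231 and 435 CPM in GMP KO, and 685 to 842 CPM in LSK. Gm10073, the closest other copy with 8 mismatches to Gm11942, gave 3.02 and 1.996 CPM in GMP CTRL and 1.87, 1.23 and 3.17 CPM in GMP KO. Gm17511, with 20 mismatches, gave 0.0487 and 0.0484 CPM in GMP CTRL and 1.13, 0.622 and 2.87 CPM in GMP KO. Among these copies, Gm11942 and Gm17511 had no overlap between KO and CTRL GMP, while Gm10073 overlapped. How reads were divided among the copies was not tested, and the counts of this family are uncertain for that reason.

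The same 9 genes were compared between LSK and GMP in KO mice. The KO GMP libraries here are those whose high counts chose the genes, so no call is given for genes lower in LSK. There 60.9% of all genes were called in either direction. Of the 9, 3 were called higher in LSK (background 30.7%) and 4 lower (background 30.1%). Mcoln2 (3.22 ± 0.15), Serpinh1 (3.43 ± 0.68) and Pcbp4 (1.56 ± 0.28, log2, SE) stayed higher in LSK. Smoc2, Calml4 (-3.30), Cgnl1 (-1.32) and Gm11942 (-9.26) were lower in LSK, given as a description with no test. Slc30a4 (0.37 ± 0.18, 95% interval -0.02 to 0.76; edgeR adjusted p = 0.090) and Ephx2 (-0.15 ± 0.25, 95% interval -0.71 to 0.42; adjusted p = 0.64) were not called. Without KO-179 Slc30a4 was higher in LSK by 0.64 with an adjusted p of 0.0016. Whether the population difference itself changed with genotype was not tested, because that difference contains the KO effects by which the genes were chosen.

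**Figure D2:**
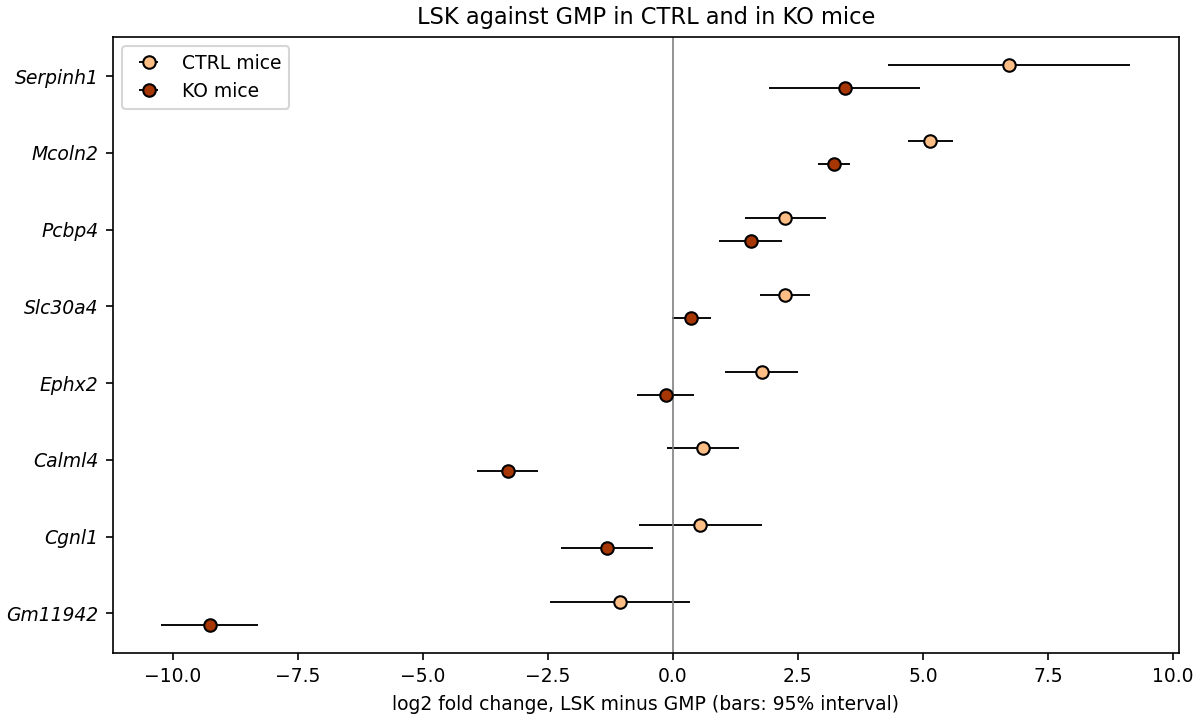
Difference between LSK and GMP (horizontal axis, log2 fold change, LSK minus GMP) for 8 of the genes in CTRL mice (light points, 2 libraries against 2) and KO mice (dark points, 3 against 3), with 95% intervals from the edgeR fit. Smoc2 is left out because all LSK libraries held 0 reads. Mcoln2, Serpinh1 and Pcbp4 lie to the right of 0 in both genotypes. Calml4, Cgnl1 and Gm11942 lie to the left of 0 in KO mice, where their intervals serve as no test because KO GMP counts chose them.

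Against control LSK, KO GMP divided the genes in another way, where 56.9% of all genes were called in either direction. LSK CTRL was called higher than GMP KO for 2 of 9 genes, Mcoln2 and Serpinh1 (background 28.8%). The choice of genes for high KO GMP counts enters this comparison directly. For Smoc2, Calml4, Cgnl1, Ephx2 and Gm11942, which were lower in LSK CTRL, no call is given for that reason. Both LSK CTRL libraries lay above every KO GMP library for the same 2, Mcoln2 and Serpinh1 (background 37.6%). Slc30a4 and Pcbp4 were not called in this comparison. The KO GMP means of Mcoln2, Serpinh1, Slc30a4, Pcbp4 and Ephx2 stood at 10.8%, 21.6%, 80.9%, 82.0% and 173% of their LSK CTRL means.

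In GMP every KO library lay above every CTRL library for 9 of 9 genes (background 16.9% of genes), which is the pattern that chose them. The ratios of KO to CTRL means in GMP were 174 for Gm11942, 122 for Smoc2, 24.1 for Serpinh1, 12.1 for Calml4, 10.8 for Cgnl1, 5.94 for Ephx2, 3.90 for Pcbp4, 3.83 for Mcoln2 and 3.82 for Slc30a4. The CTRL means behind the 3 highest ratios rest on 46 reads for Gm11942 and 6 reads each for Smoc2 and Serpinh1. In LSK the KO libraries lay fully above CTRL for 4 of 9 genes (background 6.61%): Cgnl1, Ephx2, Pcbp4 and Serpinh1, with ratios of 2.95, 1.56, 2.42 and 2.32. Counts in LSK also entered the choice of genes, so nothing is read from this number. Calml4, Mcoln2 and Slc30a4, with ratios of 0.805, 1.01 and 1.05, overlapped between genotypes in LSK. All 9 genes passed the filter on low counts in GMP and in the fit of 10 libraries, and 7 of 9 in LSK, where Smoc2 and Gm11942 did not pass.

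Within KO GMP the libraries did not rank alike across the genes. KO-179 was the highest of the 3 for Calml4, Cgnl1, Ephx2, Slc30a4 and Gm11942, KO-352 for Pcbp4 and Serpinh1, and KO-178 for Smoc2 and Mcoln2. Serpinh1 and Pcbp4 were lowest in KO-179. Reads outside annotated genes made 15.5%, 16.1% and 10.3% of the reads listed in the KO libraries, in the same order, and 8.50% and 14.2% in CTRL-346 and CTRL-350. The order of KO libraries by that share is the order of their Calml4, Cgnl1, Ephx2 and Slc30a4 levels. In the CTRL pair, CTRL-350, with the higher share, was higher for Calml4 and Cgnl1 and lower for Ephx2 and Slc30a4. The part of this share in the levels was not tested.

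Levels can be set side by side between genes only per length, as CPM per kilobase of exons. In LSK CTRL the order was Mcoln2 (mean of 10.4), Slc30a4 (9.37), Serpinh1 (1.66), Pcbp4 (1.30), Ephx2 (0.783), Gm11942 (0.386), Calml4 (0.325), Cgnl1 (0.0738) and Smoc2 (0 reads). Mcoln2 and Slc30a4 overlapped there, at 11.4 and 9.39 against 9.998 and 8.73 CPM per kilobase. In GMP KO the order was Gm11942 (141), Slc30a4 (7.58), Calml4 (2.59), Ephx2 (1.35), Mcoln2 (1.12), Pcbp4 (1.07), Smoc2 (0.642), Cgnl1 (0.542) and Serpinh1 (0.360). Ephx2, Mcoln2 and Pcbp4 overlapped between their libraries there, as did Smoc2, Cgnl1 and Serpinh1.

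**Figure D3:**
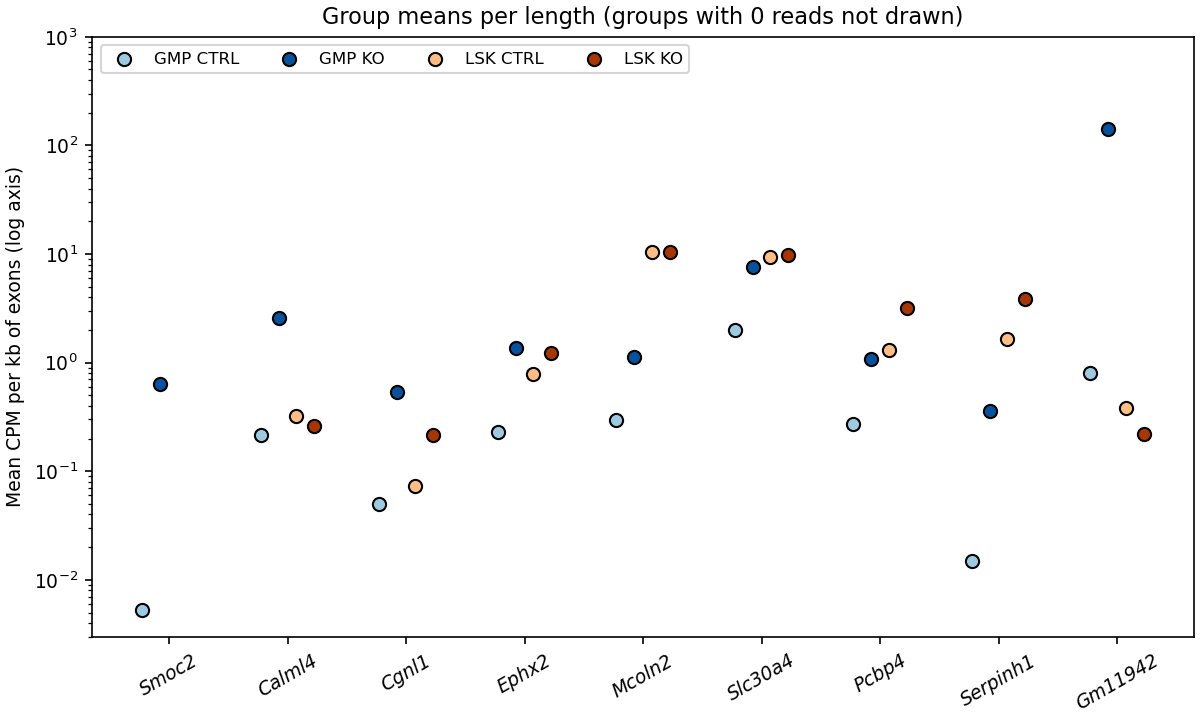
Mean level per length (vertical log axis, CPM per kilobase of exons) of the 9 genes in the 4 groups, each point the mean of 2 CTRL or 3 KO libraries; groups with 0 reads are not drawn. Gm11942 reaches 141 in KO GMP, while Slc30a4 lies between 7.58 and 9.81 in every group other than GMP CTRL.

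Dnmt3a methylates CG dinucleotides, so the CG content of the start regions was counted. RefSeq start regions (build GRCm38.p6) were matched for 5 of the 9 genes: Slc30a4, Cgnl1, Mcoln2, Serpinh1 and Calml4. The 250 bases before the RefSeq start held 40 CG in Slc30a4, 20 in Cgnl1, 20 in Mcoln2, 11 in Serpinh1 and 8 in Calml4. The motif CG reads the same on both strands. For Mcoln2 these bases lie inside the gene as annotated in GENCODE, and for Calml4 they run past its GENCODE start. Over 32851 start regions of that length the median was 6 (quartiles 2 and 16), and 92.1% held at least 1. The richest and the poorest of the 5 are shown, with each CG in capitals: chr2:122702664-122702913 (minus strand) for Slc30a4 and chr9:62857854-62858103 (plus strand) for Calml4.
Slc30a4: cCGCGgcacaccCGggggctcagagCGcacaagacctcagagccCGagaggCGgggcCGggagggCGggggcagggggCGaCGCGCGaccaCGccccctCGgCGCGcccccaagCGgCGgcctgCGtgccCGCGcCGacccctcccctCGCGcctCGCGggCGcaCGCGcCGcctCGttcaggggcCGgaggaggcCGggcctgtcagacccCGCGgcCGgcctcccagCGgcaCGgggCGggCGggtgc
Calml4: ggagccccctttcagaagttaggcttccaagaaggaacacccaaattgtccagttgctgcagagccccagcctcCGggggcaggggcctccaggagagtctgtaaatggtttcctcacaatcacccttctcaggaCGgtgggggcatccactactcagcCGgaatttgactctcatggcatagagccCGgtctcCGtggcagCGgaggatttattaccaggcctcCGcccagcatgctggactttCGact
Slc30a4 had more CG than 98.7% of start regions, and Calml4 more than 57.0%. Both were higher in every KO GMP library. No methylation was measured in the files used, so these counts describe the sequence and not its state.

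The genes around the 9 were looked at within 100 kb. In GMP 28 neighbours were tested, of which 16 had a positive and 12 a negative difference between KO and CTRL; 0 were called by edgeR (background 0.0347% of 17290 genes, 0.0231% higher and 0.0116% lower), 1 had an unadjusted p under 0.05 (13.8% of all genes did), and DESeq2 called 1 (703 of all genes). That one was in each case Adam2, which encodes a membrane protein known from sperm and lies 6.64 kb from Ephx2 on the same strand. Adam2 gave 1.05 and 0.714 CPM in GMP CTRL and 3.99, 7.28 and 3.72 CPM in GMP KO, with no overlap. Its difference was 2.49 ± 0.43 on the log2 scale with an edgeR adjusted p of 0.24. The adjusted p was 0.040 without the filter on low counts, 0.0498 without KO-352, 0.046 in the fit of all 10 libraries and 9.97e-07 with DESeq2. In LSK Adam2 gave 0.974 and 0.491 CPM in CTRL and 1.06, 1.54 and 0.705 CPM in KO, which overlap.

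The nearest tested neighbours of the other genes in GMP had smaller differences or wide errors. Beside Calml4, Cln6 differed by 0.21 ± 0.11 and Pias1 by 0.04 ± 0.09 on the log2 scale; beside Pcbp4, Abhd14b differed by 0.25 ± 0.19 and Parp3 by 0.15 ± 0.18. Beside Slc30a4, AA467197 differed by 3.06 ± 1.53 and Bloc1s6os by 0.02 ± 0.47; beside Gm11942, Ankrd6 differed by -0.44 ± 0.30 and Rragd by 1.68 ± 0.77. Chrna2, on the other side of Ephx2, differed by 0.62 ± 1.08, Gdpd5 beside Serpinh1 by -0.03 ± 0.51, and Tcf12 beside Cgnl1 by 0.10 ± 0.12. In LSK 32 neighbours were tested, 19 positive and 13 negative; 0 were called by edgeR (background 0.0232% of 17238 genes, 0.0116% higher and 0.0116% lower) or DESeq2, and 2 had an unadjusted p under 0.05 (2.83% of all genes did). Those were Gm37660 near Cgnl1 (0.87 ± 0.35) and Mcoln3 (0.72 ± 0.27). Mcoln3, the paralogous channel gene 8.03 kb from Mcoln2, gave means of 2.02 ± 0.16 CPM in LSK CTRL (SD, n = 2) and 3.30 ± 0.72 CPM in LSK KO (SD, n = 3), and at most 0.103 CPM as a group mean in GMP.

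The annotated genes that overlap the 9 had low counts. Gm10653, which overlaps Calml4 on the other strand, gave 0.468 ± 0.045 CPM in GMP CTRL and 0.466 ± 0.068 CPM in GMP KO (SD, n = 2 and 3). Gpr62, which overlaps Pcbp4 on the other strand, gave 0.0423 and 0.0948 CPM as means of GMP CTRL and KO. 4930417H01Rik, which overlaps Slc30a4 on the other strand, gave at most 0.0289 CPM as a group mean. The antisense gene 4930474M22Rik overlaps Smoc2 and was not analysed here. The library kit marks strand, but no source used here gives the strand setting of the counting, so reads of opposite genes cannot be told apart.

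**Figure D4:**
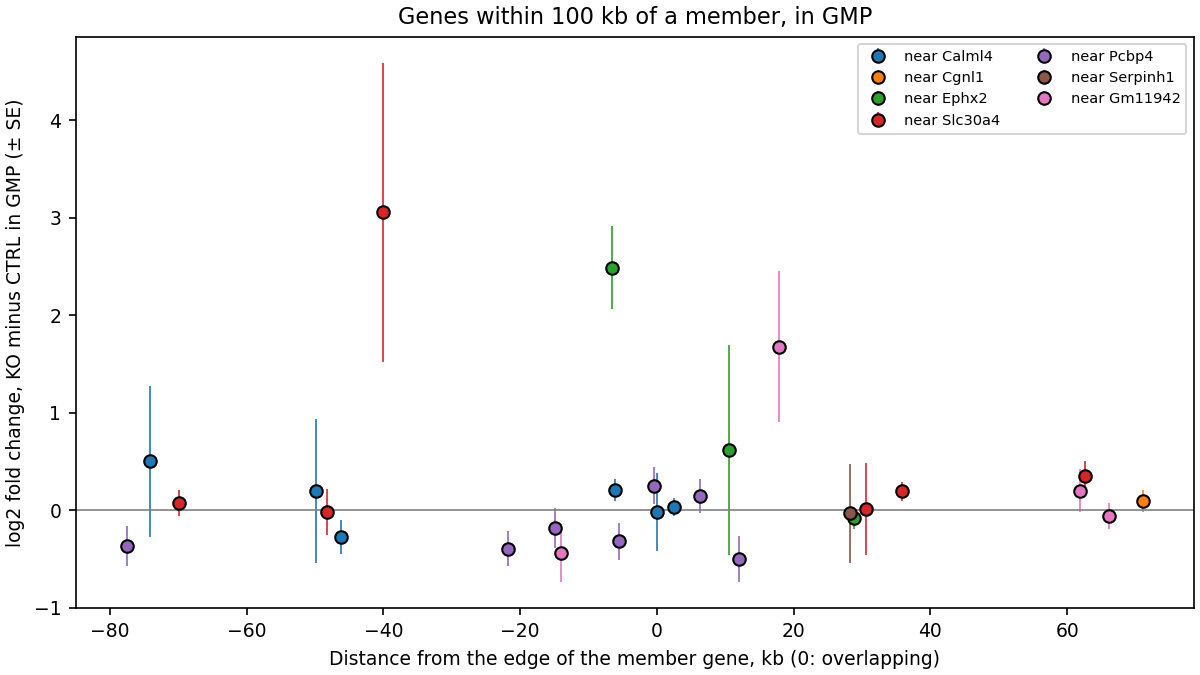
Difference between KO and CTRL in GMP (vertical axis, log2 fold change with SE) of the 28 tested genes within 100 kb of a member, against their distance from the member's edge in kilobases (horizontal axis, 0 for overlapping genes), with 1 colour per member. Adam2 stands at 2.49 near Ephx2 with an SE of 0.43, and AA467197, near Slc30a4, at 3.06 with an SE of 1.53.

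Paralogs and pathway partners of the 9 genes were taken as 11 lists. Over all of them 124 genes were tested in GMP, with 54 positive and 70 negative differences between KO and CTRL; 0 were called by edgeR in either direction, 37 had an unadjusted p under 0.05 (13.8% of all genes did), and DESeq2 called 8 (703 of all genes). Among these, Fstl1 and Mt2 were higher in KO, and Dnajb1, Lta4h, Hspa5, Hsph1 and Slc39a3 lower. In LSK 131 were tested, 66 positive and 65 negative, with 0 called by edgeR or DESeq2 and 4 at an unadjusted p under 0.05 (2.83% of all genes). The median difference of all genes tested was 0.01 on the log2 scale in GMP and 0.00 in LSK.

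Of the partners of Smoc2 and Serpinh1, the SPARC and SMOC family had 3 genes tested in GMP (2 positive, 1 negative, 0 called, median 0.54, and -0.13 to 1.24 over 10 alternatives). Fstl1, a secreted glycoprotein, gave 0.533 ± 0.323 CPM in CTRL and 3.15 ± 2.03 CPM in KO GMP (SD, n = 2 and 3; edgeR adjusted p = 0.29). Genes of collagen synthesis, the process that the Serpinh1 product serves, had 5 positive and 13 negative of 18 in GMP with 0 called (median -0.31). P4ha1, a collagen prolyl hydroxylase subunit, gave 97.7 ± 21.1 CPM in CTRL and 60.2 ± 13.9 CPM in KO GMP (edgeR adjusted p = 0.31). Heat shock chaperones, to which HSP47 belongs by name, had 1 positive and 10 negative of 11 in GMP with 0 called by edgeR (median -0.53, and -0.67 to -0.41 over 10 alternatives); in LSK 8 were positive and 3 negative (median 0.07). Hsph1 gave 143 ± 35.9 CPM in CTRL and 55.6 ± 16.6 CPM in KO GMP (edgeR adjusted p = 0.25).

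Of the partners of Calml4 and Cgnl1, the calmodulin gene Calm3 gave 553 ± 87.4 CPM in CTRL and 373 ± 68.3 CPM in KO GMP (SD, n = 2 and 3; edgeR adjusted p = 0.31). None of the 5 genes of the microvillar adhesion complex, in which the Calml4 product works in the gut, passed the filter on low counts in either population. Apical junction genes had 12 positive and 6 negative of 18 in GMP with 0 called (median 0.13, and -0.28 to 0.47 over 10 alternatives, so that its sign is not fixed). Marveld2, a protein of tricellular junctions, gave 1.12 ± 0.62 CPM in CTRL and 2.93 ± 0.78 CPM in KO GMP (edgeR adjusted p = 0.31). Between the controls 17 of 23 apical junction genes were called higher in LSK than in GMP (background 28.2%) and 2 lower (background 27.3%). Cgnl1 was not called, and its 95% interval of -0.67 to 1.77 leaves room for a higher level in LSK.

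Of the partners of Slc30a4 and Mcoln2, zinc transporters and metallothioneins had 8 positive and 14 negative of 22 in GMP with 0 called (median -0.07). Mt2, a metallothionein, gave 0.280 ± 0.225 CPM in CTRL and 1.33 ± 0.56 CPM in KO GMP, and the zinc importer gene Slc39a3 gave 17.2 ± 1.34 and 9.32 ± 2.72 CPM (edgeR adjusted p = 0.31 and 0.30). Lysosomal channels and lysosome genes had 4 positive and 7 negative of 11 with 0 called (median -0.08). Of the partners of Ephx2 and Pcbp4, eicosanoid enzymes had 10 positive and 8 negative of 18 (median 0.00), poly(C)-binding KH proteins 2 and 2 of 4 (median -0.08), and p53 targets 10 and 6 of 16 (median 0.02), each with 0 called in GMP. The medians of the zinc, eicosanoid, poly(C) and p53 lists changed sign under some alternatives. Bbc3, a p53 target that promotes apoptosis, gave 1.001 ± 0.089 CPM in CTRL and 0.431 ± 0.139 CPM in KO GMP (edgeR adjusted p = 0.33). In each of these lists 0 genes were called in LSK by edgeR or DESeq2.

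Markers of other cell types were summed in each library, and their part in the levels of the 9 genes was not tested. Markers of LSK and stem cells summed to 90.0 to 134 CPM in GMP CTRL and 83.8 to 136 CPM in GMP KO, against 1155 to 1290 CPM in LSK CTRL. Of them 9 were positive and 6 negative in KO GMP (median 0.28), with 0 called by edgeR in the fit of GMP. In the fit of all 10 libraries 1, Ly6a, was called higher. DESeq2 called 1, Mllt3, lower in KO GMP (-0.52 on the log2 scale, DESeq2 adjusted p = 0.046). Flt3, a receptor gene of early and dendritic progenitors, gave 19.5 ± 5.62 CPM in GMP CTRL, 121 ± 50.9 CPM in GMP KO and 459 ± 86.3 CPM in LSK CTRL (SD, n = 2, 3 and 2). It was not called in the fit of GMP, and was called with DESeq2, without the filter on low counts, without KO-352 and in the fit of all 10 libraries. Flt3 belongs to the list of dendritic cell markers, of which 2 were positive and 6 negative in KO GMP. Their median was -0.44, and 2.23 without CTRL-350. In LSK 0 of the 8 were positive (median -0.72).

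Stromal cells are a usual source of Smoc2 and Serpinh1, and epithelial cells of Calml4 and Cgnl1. The gate for GMP requires cKit, CD34 and FcgR. No measure of sort purity was used here, and the part of such cells in these levels was not tested. Stromal and endothelial markers summed to 20.2 to 30.3 CPM in GMP CTRL, where Col3a1 and Lum had 0 reads. They summed to 19.0 to 44.0 CPM in GMP KO, where Dcn and Lum had 0 reads. Of those tested 6 of 6 were positive in GMP (0 called, median 0.43), but 3 of 7 without CTRL-346 (median -0.26, against 1.60 without CTRL-350), and 1 of 7 was positive in LSK. Epithelial markers summed to 27.1 to 56.5 CPM in GMP CTRL, where Krt19, Cldn4 and Esrp1 had 0 reads. They summed to 32.4 to 40.7 CPM in GMP KO, where only Krt19 had 0 reads. Of the epithelial markers 4 of 5 tested were positive in GMP, with 0 called by edgeR (median 0.53, and 0.46 to 0.99 over 10 alternatives). DESeq2 called 1, Krt18, higher in KO GMP (0.40 on the log2 scale, DESeq2 adjusted p = 0.046). Krt18 gave 17.9 ± 0.54 CPM in GMP CTRL and 24.1 ± 1.21 CPM in GMP KO (SD, n = 2 and 3). Cdh1 went the other way, with 22.9 ± 21.2 and 10.8 ± 3.53 CPM. In LSK 2 of 6 were positive.

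Markers of mature neutrophils were positive in 9 of 9 in KO GMP (0 called, median 0.78), with sums of 1055 to 2559 CPM in CTRL and 636 to 4878 CPM in KO, which overlap. Without KO-179 they were positive in 5 of 9 (median 0.02), and without CTRL-346 in 7 of 9 (median 0.15); the median was 2.95 without CTRL-350. B cell markers were negative in 5 of 5 (0 called, median -0.99, from -2.18 without CTRL-346 to -0.31 without CTRL-350). T and NK cell markers were positive in 4 of 5 (0 called by edgeR, median 0.87, from 0.25 without KO-179 to 4.96 without CTRL-350). DESeq2 called 1 of the latter, Klrb1c, higher in KO GMP (3.98 on the log2 scale, DESeq2 adjusted p = 2.7e-04). Of the mast cell and basophil markers 7 of 7 were negative, with sums of 1125 to 2971 CPM in CTRL and 571 to 932 CPM in KO (median -1.24, and -0.19 without CTRL-350). Hdc of this list was called lower by edgeR (467 ± 7.28 CPM in CTRL, 227 ± 2.87 CPM in KO), a call lost without KO-178, KO-179, CTRL-346 or CTRL-350.

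Other genes were ranked by how closely their log2 CPM followed that of Smoc2 or Calml4 over the 10 libraries, among 11865 genes with a mean of at least 1 CPM. Closest to Smoc2 were Scyl3 (Pearson's r of 0.987), Ecpas (0.973) and Rhoj (0.967), and among those closest to Calml4 were Rpap2 (0.972) and Camta1 (0.953). These r are a description over 10 libraries that share 4 groups, 2 tables and 2 depths. Their ranges are far narrower than those of the 2 genes: Scyl3 gave means of 47.0 CPM in GMP CTRL and 59.3 CPM in GMP KO, and Rhoj 4.61 and 9.20 CPM. Camta1 gave 11.4 CPM in GMP CTRL, 19.97 CPM in GMP KO, 13.6 CPM in LSK CTRL and 11.2 CPM in LSK KO.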

How the data were processed

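Total RNA of 10 sorted samples was sequenced, 5 of GMP and 5 of LSK, and samples were grouped by their titles. The raw tables, as deposited, give the authors' counts per gene; STAR, HTSeq 0.5.3p3, DESeq 1.18.0, DESeq2 1.4.5 and the builds mm10 and GRCm38 are named, with no roles, per the submitters' processing notes. For annotation release and strand setting: not given in the sources used here. Normalized tables, also deposited by the authors, hold a signal, the raw counts over a library's size factor, used only to recover those factors. Lines of the GMP table that name no gene entered neither library sizes nor tests: per library, reads outside genes made 8.50% to 16.1% of the reads listed, ambiguous reads 1.14% to 1.32% and reads aligned to several places 26.3% to 29.0%.

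From the counts, edgeR 4.0.16 (R 4.3.3) was run with filterByExpr (minimum count 10), TMM scaling and the quasi-likelihood test, two-sided, with Benjamini-Hochberg adjustment over all genes tested and a threshold of 0.05. LSK against GMP came from 1 fit of all 10 libraries over 38086 shared gene IDs (6 residual degrees of freedom), KO against CTRL from a fit per population (3 each). CPM uses the TMM library sizes of all 10 libraries. Alternatives were DESeq2 1.42.0, median-ratio scaling, no filter, the authors' size factors, scaling on genes read in all libraries, the fit of all 10 libraries, other levels for calling a gene on, and leaving out each library. The edgeR fit was tested on simulated counts. No pair of libraries agreed within sampling noise. Symbols and coordinates, 1-based, are from GENCODE vM21 (GRCm38), matched for 37607 of 38924 GMP and 44671 of 45513 LSK gene IDs.

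Named are the 9 genes and Dnmt3a; of each partner list up to 2 genes with the smallest p per population; of marker lists the most abundant 3; overlapping and nearest tested neighbours; and the 3 genes most like Smoc2 and Calml4. Some of these are not printed, and a few items are not reported here; the Rplp1 copies, Gm37660 and the genes that DESeq2 called were chosen after their values were seen. Members and lists were chosen with earlier results of these data known.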

Additional observations from a re-analysis of the deposited data

Results flagged for a closer look

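Calml4 was higher in all 3 KO GMP libraries than in any CTRL GMP library, while all 3 KO LSK libraries lay below the LSK CTRL mean (KO minus CTRL of -0.231 CPM between means). The same held for Gm11942, with a KO minus CTRL difference of -0.0575 CPM in LSK. Neither difference between the populations was tested. In LSK the Gm11942 values rest on 9 reads in CTRL and 8 in KO, and KO-1327 for Calml4 lies between the 2 CTRL libraries.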

How the results depend on the processing

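Of 243 values of members for LSK against GMP under the alternatives, 231 kept direction and side of the threshold, 8 lost the call, 4 gained it and 0 reversed. Lost calls were those of Serpinh1, given with the results, and of Cgnl1 and Ephx2 as lower in LSK than in KO GMP, where no call is given. Gained ones were those of Slc30a4 and Pcbp4, given with the results. Smoc2 also gained a call between the controls without CTRL-350, with 1 GMP CTRL library left, and nothing is read from it. For KO against CTRL, 152 of 158 member values moved by less than 1 SD and 6 by more. The number of genes on in control LSK, 6, was 7 at 0.5 CPM, 4 at 2 CPM and 6 under the other alternatives.

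The number of genes called between KO and CTRL moved most. In GMP it was 6 with edgeR, 703 with DESeq2 (415 higher, 288 lower), 50 without the filter on low counts and 182 in the fit of all 10 libraries. Leaving out a library gave 1 (without CTRL-350) to 172 (without KO-352), with 2 without KO-178 and 2 without KO-179. In LSK it was 4 with edgeR, 20 with DESeq2, 27 without the filter and 0 in the fit of all 10 libraries, where 487 genes had an unadjusted p under 0.05 in the fit of LSK alone. Leaving out a library gave 3 to 11 in LSK (11 without CTRL-1326, 7 without KO-1333). The cause was not tested. Where 1 CTRL library remained, it was assumed to vary like the other group.

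No paired analysis was possible because no title number occurs in more than 1 group. Limits are 2 CTRL libraries per population, a lower depth of LSK than of GMP, and control GMP counts of 6 reads for Smoc2 and Serpinh1. A further limit is the female pattern of some LSK libraries and of no GMP library.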
